A study of Mus musculus with 9 samples.

Results

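Liver scarring was read here through 39 genes of the extracellular matrix and of the stellate cells that make it, in 9 mouse liver libraries. The genes were chosen by name, from a list drawn up with earlier results of these data known but with no measured value in the rule itself, and are 39 of the 55401 genes in the count table. They comprise 5 fibrillar collagens, 4 collagens of basement membranes, 4 type VI and XIV collagens, 7 matrix glycoproteins, 3 small leucine-rich proteoglycans, 4 contractile and intermediate filament genes, 5 matrix proteases or their inhibitors, 3 lysyl oxidases and 4 genes of growth factor signalling. All 39 had counts, and 36 had enough of them to be tested. The other 3, Thbs1, Timp1 and Lox, are described by their counts.

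Hepatic stellate cells lie between the hepatocytes and the sinusoids and store vitamin A as retinyl esters. In an injured liver they turn into myofibroblasts, which contract through smooth muscle actin and secrete fibrillar collagen. Transforming growth factor beta drives their collagen genes and platelet-derived growth factor their division. Lysyl oxidases cross-link the secreted collagen, metalloproteinases cut it, and tissue inhibitors of metalloproteinases slow that cutting.

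RNA from the left liver lobe was sequenced with QuantSeq, a kit that reads the 3' ends of polyadenylated transcripts, in 3 groups of 3 libraries. Chow mice (noSTZ + NC) ate normal chow and received neither streptozotocin nor Atglistatin. STAM mice were males given 200 µg of streptozotocin, a toxin of the insulin-producing cells, under the skin at 2 days of age, and fed a high-fat diet from 4 weeks of age for 4 weeks. STAM + Atglistatin mice (STAM + ATGLi) received the same streptozotocin and diet, with Atglistatin mixed into the feed, a compound that blocks the fat-cleaving enzyme ATGL. Streptozotocin and the diet differ together between chow and STAM, so that they cannot be told apart, and the strain is not given in the sources used here. For chow and STAM samples the treatment field contradicts the titles and the study's design, as it gives streptozotocin to the chow samples and none to the STAM samples, so groups were taken from the titles. Replicates carry the numbers of the sample titles: chow 7 to 9, STAM 1 to 3 and STAM + Atglistatin 4 to 6. No label states that each library is a separate animal, so p-values measure the spread between these libraries.

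Values are CPM, a gene's counts relative to its library total, scaled for library composition. Differences are on the log2 scale with their SE, tested in edgeR by quasi-likelihood, with p adjusted by Benjamini-Hochberg over 12660 genes. The threshold for passing was an adjusted p of 0.05. Library totals were 7.38 to 9.89 in units of 1e6 counts. Alb, the albumin gene of hepatocytes, stood at 26580 to 62845 CPM, and Lrat, which makes the retinyl esters of stellate cells, at 8.87 to 15.8 CPM, so RNA of both cell types was present in each library. In whole-tissue RNA, fewer cells of a type and less RNA per cell cannot be told apart.

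One chow library stood apart and touches most results below. Chow replicate 7 had the highest level of the 9 libraries for 19 of the 36 tested genes (52.8%), against 12.3% of all tested genes. In 8 of the 36 (22.2%) it was at least 2 times the next chow library, which held for 2.58% of all tested genes. These 8 were the 5 fibrillar collagens Col1a1, Col1a2, Col3a1, Col5a1 and Col5a2, the proteoglycan Lum, and Acta2 and Des. Over the 36 genes the median level of chow replicate 7, as log2(CPM + 1) minus each gene's mean, was 0.50, against -0.13 and -0.11 in chow replicates 8 and 9. The other 6 libraries lay between -0.18 and 0.18. The main comparisons with chow are therefore also given without it. By gene, the text does so only for some of those whose direction or call turned on this library. In STAM against chow the direction also turned for Sparc, Bgn, Timp2, Col4a1, Col5a2 and Col6a3, among others. Their values without chow replicate 7 are shown only in the plot of log2 fold changes with and without it, which covers all 36 genes.

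**Figure D1:**
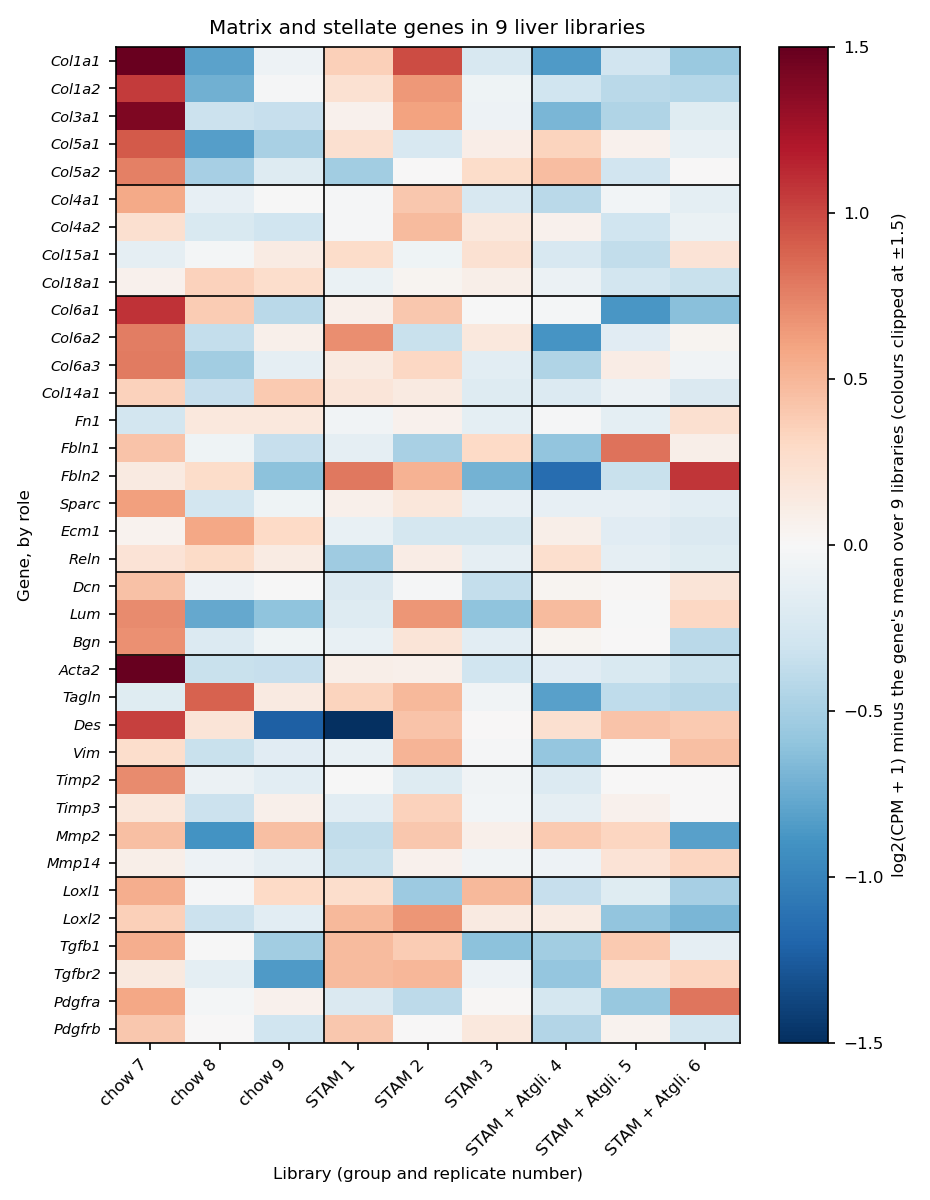
Level of the 36 tested genes (lines, by role) in the 9 libraries (columns), as log2(CPM + 1) minus the mean of the gene over the libraries. Chow replicate 7 is the highest library for 19 genes, among them the 5 fibrillar collagens at the top and Acta2.

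Markers of other cells moved with chow replicate 7 as well. Of 11 genes of dividing cells 9 were highest there, and their summed level was 130 CPM against 30.7 and 45.8 in the other chow libraries, 59.7 to 68.3 in STAM and 55.2 to 92.2 in STAM + Atglistatin. Of 8 markers of recruited macrophages 5 were highest there, with a sum of 185 CPM against 86.4 and 120 in chow, 94.9 to 129 in STAM and 96.5 to 148 in STAM + Atglistatin. Of these 8, Trem2 was at 0 in chow replicates 8 and 9. Their part in the matrix results was not tested.

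Summed over genes, lists for cells that carry matrix or contractile transcripts differed less. By gene, chow replicate 7 was highest for 4 of 11 quiescent stellate cell markers, and at least 2 times the other chow libraries for 1, Cygb. It was also at least 2 times those libraries for the portal fibroblast markers Eln and Cd34 and the smooth muscle marker Myh11. The 11 markers of quiescent stellate cells summed to 213 CPM in chow replicate 7, 161 and 167 in the other chow libraries, 174 to 190 in STAM and 182 to 187 in STAM + Atglistatin. The 9 portal fibroblast markers summed to 67.4 CPM in chow replicate 7 and to 58.3 and 57.2 in replicates 8 and 9, with Pi16 and Gli1 at 0 in both of those. They gave 54.7 to 69.8 in STAM and 50.7 to 95.7 in STAM + Atglistatin. The 7 smooth muscle markers gave 155 CPM in chow replicate 7 against 148 and 155 in chow, 160 to 187 in STAM and 159 to 170 in STAM + Atglistatin, and Cnn1 was at 0 in chow replicates 8 and 9. The 6 mesothelial markers summed to 2.77 to 11.2 CPM over the 9 libraries. The fibrillar collagens summed to 324 CPM in chow replicate 7, against 87.7 and 123 in the other chow libraries.

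**Figure D2:**
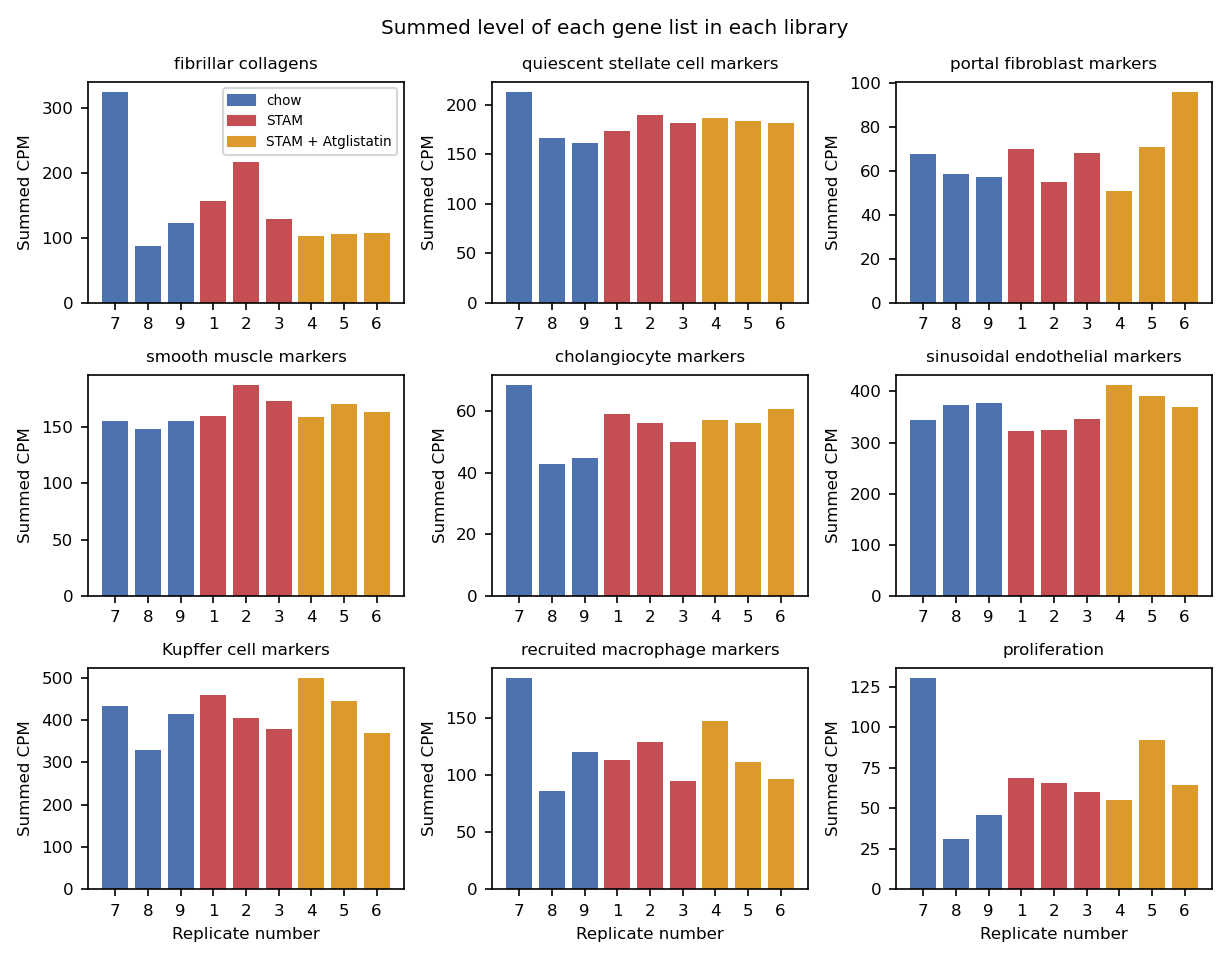
Summed CPM of the fibrillar collagens and of 8 marker lists in each library, with the replicate number below each bar and the group as colour. Chow replicate 7 is the highest bar for the fibrillar collagens (324 CPM), recruited macrophages (185) and proliferation (130). By less, it is also the highest for quiescent stellate cells (213) and cholangiocytes (68.5). It is not the highest for the portal fibroblast, smooth muscle, sinusoidal endothelial and Kupffer cell lists.

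In STAM against chow, none of the 36 genes passed in edgeR in either direction, where 3.94% of all tested genes did (1.95% higher and 1.99% lower). At an unadjusted p under 0.05, 3 were lower (Ecm1, Reln and Dcn) and 0 higher, against 7.31% and 7.24% of all genes. DESeq2, limma-voom and edgeR with no low-count filter each called 1 gene, Ecm1, lower, where they called 2.13%, 3.20% and 1.79% of all genes lower. A fit to the 6 libraries alone called 0, against 2.00% of all genes. Log2 fold changes were above 0 for 11 genes and below 0 for 25, with a median of -0.09 against -0.00 over all tested genes. Without chow replicate 7 they were above 0 for 27 genes and below 0 for 9, with a median of 0.22 against 0.03. In that fit Ecm1 passed as lower, 0 genes passed as higher, and 5.54% of all genes passed (2.68% higher and 2.86% lower). At an unadjusted p under 0.05, 7 were then higher, namely Col1a1, Col1a2, Col3a1, Col5a1, Col4a2, Lum and Tgfbr2, where 8.71% of all genes were, and Col18a1 and Ecm1 were lower, where 8.40% of all genes were.

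In STAM + Atglistatin against STAM, none of the 36 passed in edgeR, where 1.79% of all tested genes did (1.04% higher and 0.742% lower). At an unadjusted p under 0.05, 3 were lower (Col1a1, Col1a2 and Loxl2) and 0 higher, against 5.06% and 5.09% of all genes. DESeq2, which also tested the low-count genes, called 1 lower, Thbs1, and limma-voom called 0, against 0.819% and 0.893% of all genes. A fit to these 6 libraries alone called Col1a1 and Col1a2 lower (1.18% of all genes), and edgeR with no low-count filter called those and Col3a1 (0.916%). The median was -0.23 against -0.00 over all tested genes, with 24 genes below 0 and 12 above. All 3 STAM + Atglistatin libraries lay below all 3 STAM libraries for 7 of the 36 genes, Col1a1, Col1a2, Col3a1, Col6a1, Sparc, Tagln and Loxl2, and above them for 1, Dcn. Of all tested genes 8.45% lay below and 8.58% above in this way.

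In STAM + Atglistatin against chow, 1 of the 36 passed as lower in edgeR, Col18a1, and 0 as higher, where 4.08% of all tested genes passed (2.10% higher and 1.97% lower). DESeq2 and limma-voom also called Col18a1 alone of these genes, against 2.07% and 2.35% of all genes lower. With no low-count filter Col1a1, Col1a2 and Col3a1 were called as well (1.84% of all genes), and in the fit to the 6 libraries alone 0 were (1.52%). At an unadjusted p under 0.05, 7 were lower and 0 higher, against 7.36% and 7.47% of all genes. The 7 were Col1a1, Col1a2, Col3a1, Col18a1, Col6a1, Ecm1 and Tagln. The median was -0.25 against -0.00 with chow replicate 7 and 0.05 against 0.01 without it. Without it Col18a1 and Ecm1 passed as lower, and 5.79% of all genes passed (2.88% higher and 2.91% lower). At an unadjusted p under 0.05, 2 were then higher and 3 lower, against 9.14% and 8.31%. This comparison and the first share the chow libraries, and it shares the treated libraries with the second.

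**Figure D3:**
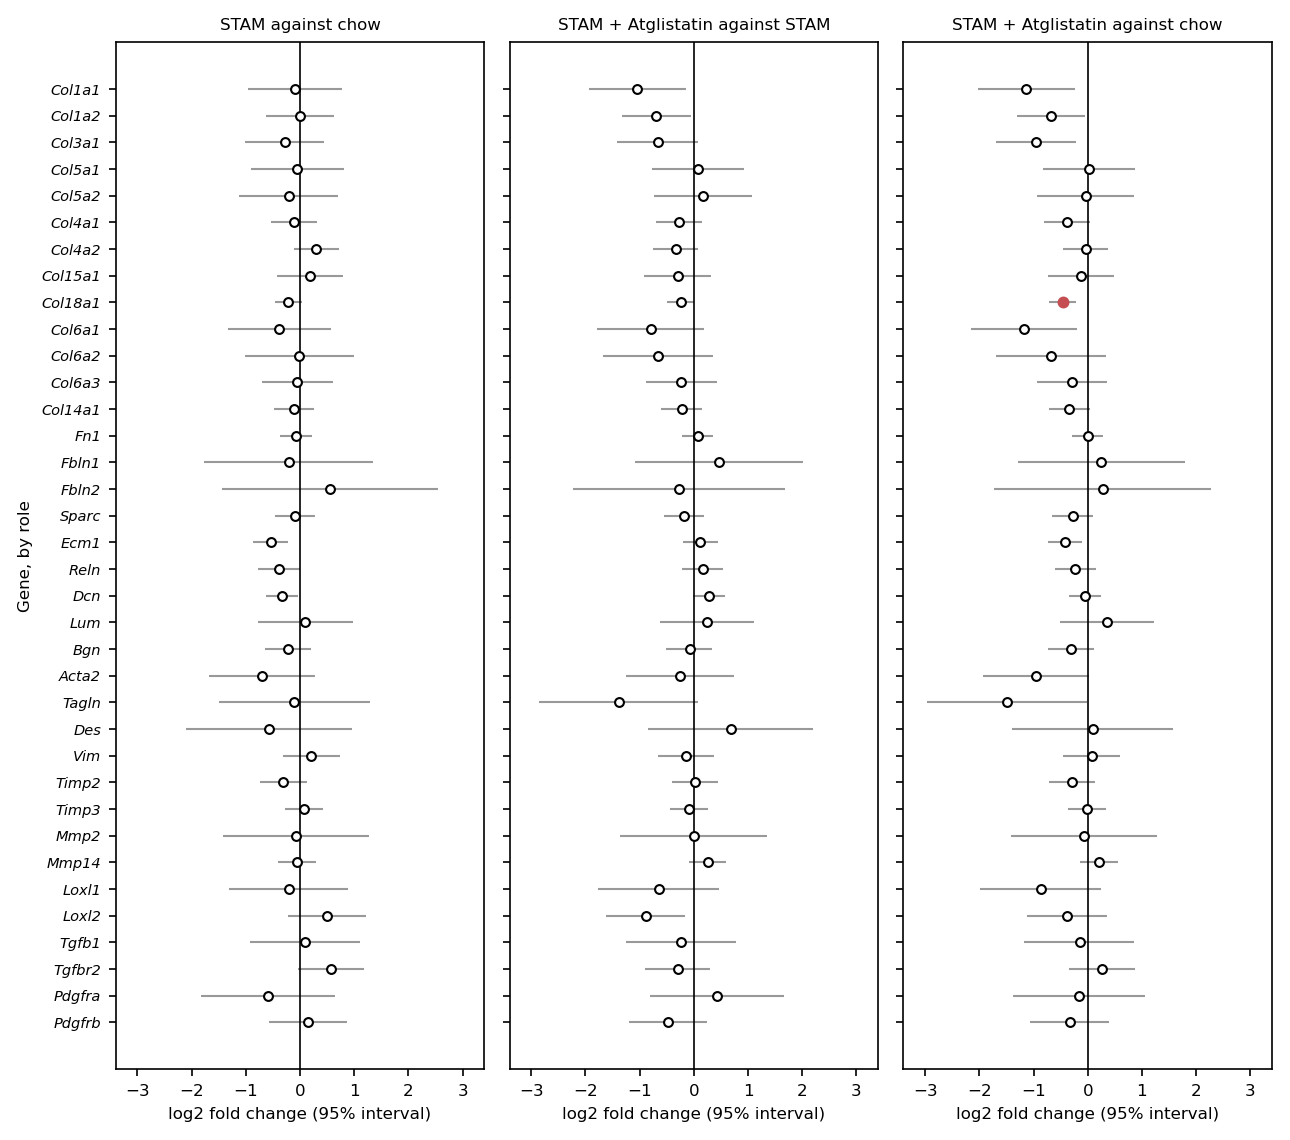
Log2 fold change with its 95% interval for the 36 tested genes in the 3 comparisons, from edgeR on all 9 libraries. The filled point is the gene with an adjusted p under 0.05, Col18a1 in STAM + Atglistatin against chow.

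The fibrillar collagens, the rope-like collagens of scar tissue, were all highest in chow replicate 7, and 3 of the 5 were lower in every treated library than in every STAM library. Col1a1, the alpha 1 chain of type I collagen (chromosome 11, 94936224 to 94953042, plus strand, GRCm38), was at 70.5, 13.7 and 23.3 CPM in chow replicates 7, 8 and 9. It was at 31.8, 49.6 and 20.7 CPM in STAM replicates 1, 2 and 3, and at 13.2, 20 and 16.4 in STAM + Atglistatin replicates 4, 5 and 6. The treated libraries were all below the STAM libraries, while the chow libraries spanned both groups. The difference between treated and untreated STAM was -1.04 ± 0.42, a 2.06-fold lower mean, with a 95% interval of -1.93 to -0.14 and an edgeR adjusted p of 0.368. Over the alternatives that adjusted p ran from 2.65e-05 with no low-count filter to 0.801. With only the 6 libraries compared it was 0.0267. Without STAM replicate 2 the difference was -0.67, the smallest of the fits that left out 1 library.

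Col1a2, the alpha 2 chain of the same collagen (chromosome 6, 4504814 to 4541544, plus strand), followed the same order in the highest 5 libraries. Its levels, in the order of replicates used above, were 131, 37.7 and 61.9 CPM in chow, 73.4, 98.8 and 59.6 in STAM, and 50.7, 47.1 and 46.2 in STAM + Atglistatin. The treated libraries again lay below the STAM libraries and varied little. The difference was -0.69 ± 0.30 (95% interval -1.32 to -0.06, edgeR adjusted p = 0.417, and 0.0209 with only the 2 groups). Col3a1, the type III collagen laid down beside type I (chromosome 1, 45311538 to 45349706, plus strand), was at 98.4, 29.3 and 28.8 CPM in chow, 38.4, 56.3 and 34.7 in STAM, and 22.4, 26.6 and 32.3 in STAM + Atglistatin. Its treated and untreated STAM libraries did not overlap either, and the difference was -0.67 ± 0.35 (edgeR adjusted p = 0.563).

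Against chow the answer for these collagens turned on chow replicate 7. With it, the STAM minus chow difference was -0.09 ± 0.41 for Col1a1, 0.00 ± 0.30 for Col1a2 and -0.28 ± 0.35 for Col3a1. Without it the values were 0.88 ± 0.30, 0.64 ± 0.21 and 0.57 ± 0.22, with edgeR adjusted p of 0.106, 0.0835 and 0.156. The direction thus turned for Col1a1 and Col3a1, and no fit passed the threshold. For STAM + Atglistatin against chow the shift went the same way but did not turn the direction. Col1a1 was at -1.13 ± 0.42 with the library and -0.16 ± 0.30 without it. Leaving out chow replicate 8 in place of 7 gave -1.51 for Col1a1 and -1.01 for Col1a2, with edgeR adjusted p of 0.0325 and 0.0326, where 1.09% of all genes passed as lower. With the low-count filter and all 9 libraries in the fit, edgeR passed 0 of the 5 fibrillar collagens in any comparison. With no filter it passed Col1a1, Col1a2 and Col3a1 as lower in STAM + Atglistatin, against both STAM and chow.

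**Figure D4:**
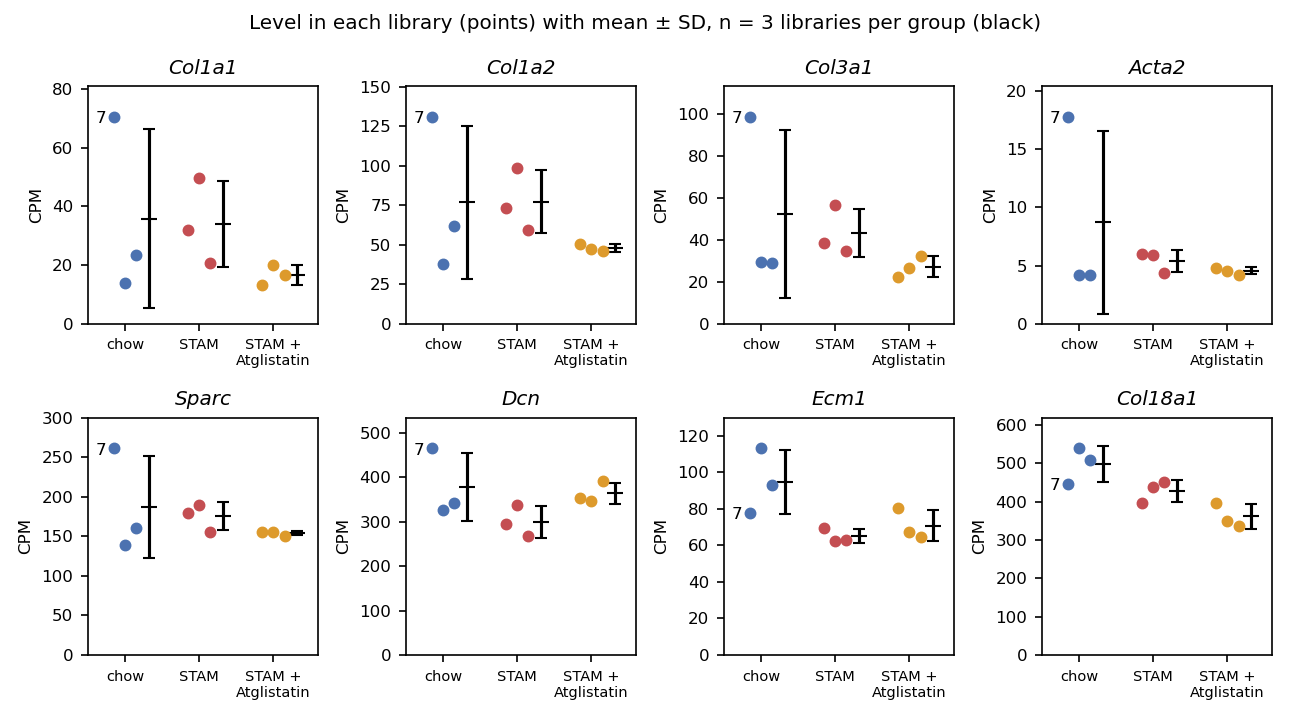
CPM of 8 genes in each library (points, in replicate order within a group) with mean ± SD over n = 3 libraries in black. The number 7 marks chow replicate 7, which is highest for Col1a1, Col1a2, Col3a1, Acta2, Sparc and Dcn and the lowest chow library for Ecm1 and Col18a1.

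Type V collagen, which starts fibril assembly, was less abundant in counts and did not share the difference between STAM groups. Col5a1 was at 14.9, 3.74 and 5.02 CPM in chow, 8.96, 6.14 and 8.05 in STAM, and 9.63, 7.87 and 6.81 in STAM + Atglistatin. Chow replicate 7 was the highest of the 9 and the other chow libraries the lowest, while the STAM groups overlapped (0.07 ± 0.41, edgeR adjusted p = 0.982). Col5a2 ranged from 3.21 to 9.16 CPM, highest in chow replicate 7.

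The stretches before the RefSeq start sites (GRCm38.p6) of Col1a2 and Col3a1 are shown because these genes shared the order of their top 3 libraries. Col1a1, Sparc and Col6a3 had that order too. For Col1a2 only the part outside annotated untranslated exons is given, chr6:4505370-4505492 on the plus strand, 248 to 126 bases before the start. This stretch lies inside the gene span given above for Col1a2, which begins at 4504814, before the RefSeq start. For Col3a1 the 250 bases are chr1:45311288-45311537, plus strand. Capitals mark matches, on either strand, to the TATA box as TATAAA or in its variant TATATA, to the box CCAAT, to the core of Sp1 sites GGGCGG, to the core of Smad sites CAGACA, or to the CArG box of serum response factor, with at most 1 G or C among its 6 inner bases. No matches in these stretches overlap each other.
Col1a2: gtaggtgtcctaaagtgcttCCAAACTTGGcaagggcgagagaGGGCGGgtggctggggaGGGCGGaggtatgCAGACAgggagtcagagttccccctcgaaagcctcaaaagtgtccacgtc
Col3a1: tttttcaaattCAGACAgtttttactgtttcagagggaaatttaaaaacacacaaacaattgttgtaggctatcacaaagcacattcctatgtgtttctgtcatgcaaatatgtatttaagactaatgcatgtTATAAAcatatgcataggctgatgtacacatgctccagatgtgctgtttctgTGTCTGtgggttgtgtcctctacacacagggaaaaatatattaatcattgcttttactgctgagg

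In the printed stretch Col1a2 held 2 matches to GGGCGG (from 205 and 188 bases before the start), 1 to CAGACA (175) and 1 to the CArG box (228). Outside it, nearer the start, Col1a2 also held CCAAT (109). Col3a1 held TATAAA (117) and CAGACA on both strands (239 and 65). Of the 39 genes 26 had an entry, with 29 promoters. Among 32851 mouse promoters of the same 250 bases, 12.4% held TATAAA, 5.25% TATATA, 33.8% CCAAT, 32.7% GGGCGG, 17.1% CAGACA and 8.59% a CArG box. Among the 29 these were 3, 0, 9, 17, 9 and 7. A match describes the sequence and is not evidence of binding.

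Among the basement membrane collagens, Col18a1, whose tail is cut off as endostatin and which hepatocytes also make, gave the one call. It lies on chromosome 10 (77052178 to 77166548, minus strand). Its levels were 446, 539 and 508 CPM in chow, 396, 438 and 451 in STAM, and 398, 351 and 337 in STAM + Atglistatin. The treated libraries lay below all chow libraries, with STAM between them and overlapping both. It fell by 0.46 ± 0.12 in STAM + Atglistatin against chow, a 1.37-fold change (edgeR adjusted p = 0.0353, 0.00405 to 0.166 over the alternatives). Leaving out chow replicate 7 gave -0.53 (adjusted p = 0.00718), and the authors' deposited table gives an adjusted p of 0.00388. Against STAM the difference was -0.24 ± 0.12 (edgeR adjusted p = 0.522), and STAM against chow gave -0.22 ± 0.12 (edgeR adjusted p = 0.431). Slc19a1, which overlaps Col18a1 on the other strand, had 22 to 70 counts a library, against at least 3114 for Col18a1.

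Col4a1 and Col4a2, the paired chains of the main basement membrane network, start from opposite strands of a shared region, 11312805 to 11312826 on chromosome 8. That region holds the starts of both genes, while QuantSeq reads the 3' ends of transcripts. The sources used here do not say whether counting used strand. Col4a1 ranged from 40.4 to 65.7 CPM in chow, 37.0 to 58.8 in STAM and 32.7 to 42.7 in STAM + Atglistatin, and Col4a2 from 21.9 to 32.1, 26.8 to 38.1 and 21.9 to 28.4. Col15a1, a collagen of vessel basement membranes, ranged from 5.60 to 9.29 CPM over the 9 libraries. The groups overlapped for all 3 genes in every comparison, and their edgeR adjusted p ran from 0.400 to 0.963.

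The type VI collagens form beaded filaments around cells, and Col14a1 binds to the surface of collagen fibrils. All 4 genes were below 0 in each comparison, with medians of -0.08, -0.45 and -0.51, when all libraries were fitted with edgeR and its usual scaling. In STAM against chow 2 of the 4 were above 0 when scaled by library totals or fitted with limma-voom, and 1 without chow replicate 9. In edgeR 0 of 4 passed in any comparison. Col6a1, with 18 to 98 counts a library, lay at 4.21 to 5.90 CPM in STAM and 1.87 to 4.11 in STAM + Atglistatin, without overlap (-0.80 ± 0.47, edgeR adjusted p = 0.622). Col6a2, Col6a3 and Col14a1 overlapped between these groups. Without chow replicate 7, 3 of the 4 were above 0 in STAM against chow, with a median of 0.30, and 1 of the 4 in STAM + Atglistatin against chow, with a median of -0.23.

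Among the matrix glycoproteins, Ecm1 came closest to a call in STAM against chow, just short of the threshold. The protein, extracellular matrix protein 1, is known to hold latent transforming growth factor beta inactive in the liver. The gene (chromosome 3, 95734147 to 95739569, minus strand) was at 77.9, 113 and 93.2 CPM in chow, 69.7, 62.6 and 63.0 in STAM, and 80.4, 67.1 and 64.5 in STAM + Atglistatin. All STAM libraries were below all chow libraries, and the treated libraries overlapped both. The STAM minus chow difference was -0.54 ± 0.15, a 1.46-fold lower mean, with an edgeR adjusted p of 0.0533 (0.00749 to 0.284 over the alternatives). It passed without chow replicate 7 (-0.67 ± 0.15, adjusted p = 0.00749), with DESeq2 (0.0290), with limma-voom (0.0124) and with no low-count filter (0.0189), and it is at 0.0273 in the authors' deposited table. It did not pass with DESeq2 size factors (edgeR adjusted p = 0.0557), with only the 2 groups (0.0688), with library totals (0.108), or in the other 5 fits that left out 1 library (0.119 to 0.284, the highest without chow replicate 8). Chow replicate 7 was here the lowest chow library. In STAM + Atglistatin the difference from chow was -0.42 ± 0.15 (edgeR adjusted p = 0.158) and from STAM 0.12 ± 0.15 (edgeR adjusted p = 0.884).

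The 250 bases before the RefSeq start of Ecm1, chr3:95739570-95739819 on the minus strand, are shown because the gene came closest to a call in STAM against chow. Capitals mark the same motifs.
Ecm1: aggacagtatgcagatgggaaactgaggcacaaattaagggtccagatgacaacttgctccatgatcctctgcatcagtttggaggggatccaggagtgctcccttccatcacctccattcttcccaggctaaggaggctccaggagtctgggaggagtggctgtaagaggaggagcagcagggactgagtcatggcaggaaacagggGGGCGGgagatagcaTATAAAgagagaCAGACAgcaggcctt

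It held GGGCGG (from 42 bases before the start), TATAAA (27) and CAGACA (15), all on the forward strand, and no CArG box.

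Reln, a secreted glycoprotein made by stellate cells in the liver, was at 42.2, 44.7 and 39.6 CPM in chow, 24.8, 39.1 and 32.9 in STAM, and 43.2, 32.7 and 32 in STAM + Atglistatin. The STAM libraries lay below the chow libraries, narrowly for STAM replicate 2. The difference was -0.39 ± 0.18 (edgeR adjusted p = 0.338), and also -0.39 without chow replicate 7. Ecm1 and Reln were the 2 of 36 genes with all STAM libraries below all chow libraries, and 0 lay above, where 10.2% of all tested genes lay below and 10.6% above.

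Fn1, fibronectin, which hepatocytes also release into plasma, was at 541, 730 and 725 CPM in chow, 628, 684 and 589 in STAM, and 642, 587 and 771 in STAM + Atglistatin. The groups overlapped throughout, and chow replicate 7 was the lowest of the 9 libraries. Differences were -0.07 ± 0.14, 0.07 ± 0.14 and 0.00 ± 0.14 in the 3 comparisons, with 95% intervals inside -0.36 to 0.36. Sparc, a collagen-binding protein, was at 139 to 261 CPM in chow, 156 to 190 in STAM and 151 to 156 in STAM + Atglistatin, where treated libraries lay below STAM by less than 1 CPM at the nearest pair (-0.19 ± 0.18, edgeR adjusted p = 0.822).

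The fibulins, which link elastic fibres and basement membranes, were near the limit of testing. Fbln2 had 1 to 38 counts a library, at 1.65, 1.93 and 0.591 CPM in chow, 3.21, 2.48 and 0.481 in STAM, and 0.100, 0.933 and 4.11 in STAM + Atglistatin. Treated replicate 6 stood 4.41 times above the next library of its group, the widest such ratio of the 36 genes. Fbln1 ranged from 0.702 to 3.52 CPM.

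Thbs1, thrombospondin 1, an activator of latent transforming growth factor beta, had too few counts for edgeR. It had 8, 4 and 1 counts in chow, 7, 14 and 9 in STAM, and 0 in each STAM + Atglistatin library. Against a floor of 3 counts over the group, the treated level was at least 11.2-fold lower than STAM and at least 5.05-fold lower than chow. With the counting error of the STAM and chow counts included, the lower 95% limits of these ratios were 8.54 and 3.55. DESeq2, which kept the gene, gave an adjusted p of 0.0215 against STAM, and edgeR with no filter gave 0.0738. Ratios of such counts cover counting error only.

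The small leucine-rich proteoglycans coat collagen fibrils and space them. Dcn, decorin, which also binds transforming growth factor beta, was at 465, 326 and 342 CPM in chow, 295, 337 and 267 in STAM, and 354, 347 and 391 in STAM + Atglistatin. The treated libraries were all above the STAM libraries, and chow overlapped both. The difference was 0.28 ± 0.14 against STAM (edgeR adjusted p = 0.545), and STAM against chow gave -0.33 ± 0.14 (edgeR adjusted p = 0.268), or -0.16 without chow replicate 7. Dcn, a marker of quiescent as well as active stellate cells, thus lay opposite to Col1a1 between the STAM groups, though neither passed. Lum, lumican, ranged from 4.46 to 14.3 CPM and Bgn, biglycan, from 58.9 to 127, both highest in chow replicate 7.

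Of the contractile and filament genes, Acta2, the smooth muscle actin that defines the myofibroblast, was at 17.8, 4.22 and 4.14 CPM in chow, 5.97, 5.90 and 4.33 in STAM, and 4.82, 4.56 and 4.22 in STAM + Atglistatin. The other 8 libraries lay within 4.14 to 5.97 CPM, and chow replicate 7 stood 4.22 times above the next chow library. STAM minus chow was -0.71 ± 0.46 with that library and 0.37 ± 0.42 without it (edgeR adjusted p = 0.547 and 0.739). Against STAM the treated group differed by -0.25 ± 0.47 (95% interval -1.25 to 0.74). Reads of Acta2 may be shared with other actin genes of near-identical sequence. Its promoter entry holds 2 CArG boxes, CCCTATATGG and CCTTGTTTGG, from 84 and 34 bases before the RefSeq start. It also holds CAGACA on the reverse strand, from 236 bases before that start.

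Des, desmin, a filament of stellate and muscle cells, was at 6.59, 3.25 and 0.591 CPM in chow, 0.332, 4.01 and 2.76 in STAM, and 3.41, 4.04 and 3.89 in STAM + Atglistatin, with 3 to 64 counts a library. The chow and STAM libraries were scattered over a wide range, and the treated libraries lay close together within it. Differences were -0.58 ± 0.72 for STAM against chow, or 0.27 ± 0.78 without chow replicate 7, and 0.68 ± 0.72 for treated against untreated STAM. Tagln, transgelin, another contractile marker, had 5 to 10 counts in the treated libraries and 13 to 32 in the other 6. It lay below both other groups without overlap, by -1.38 ± 0.70 against STAM and -1.49 ± 0.70 against chow (edgeR adjusted p = 0.545 and 0.329). The latter was -1.78 ± 0.75 without chow replicate 7. Tagln overlaps Pcsk7, which had 42 to 91 counts, and Gm48529 on the other strand, so that without strand their reads cannot be told apart. Vim, vimentin, ranged from 18.2 to 39.8 CPM with overlapping groups.

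**Figure D5:**
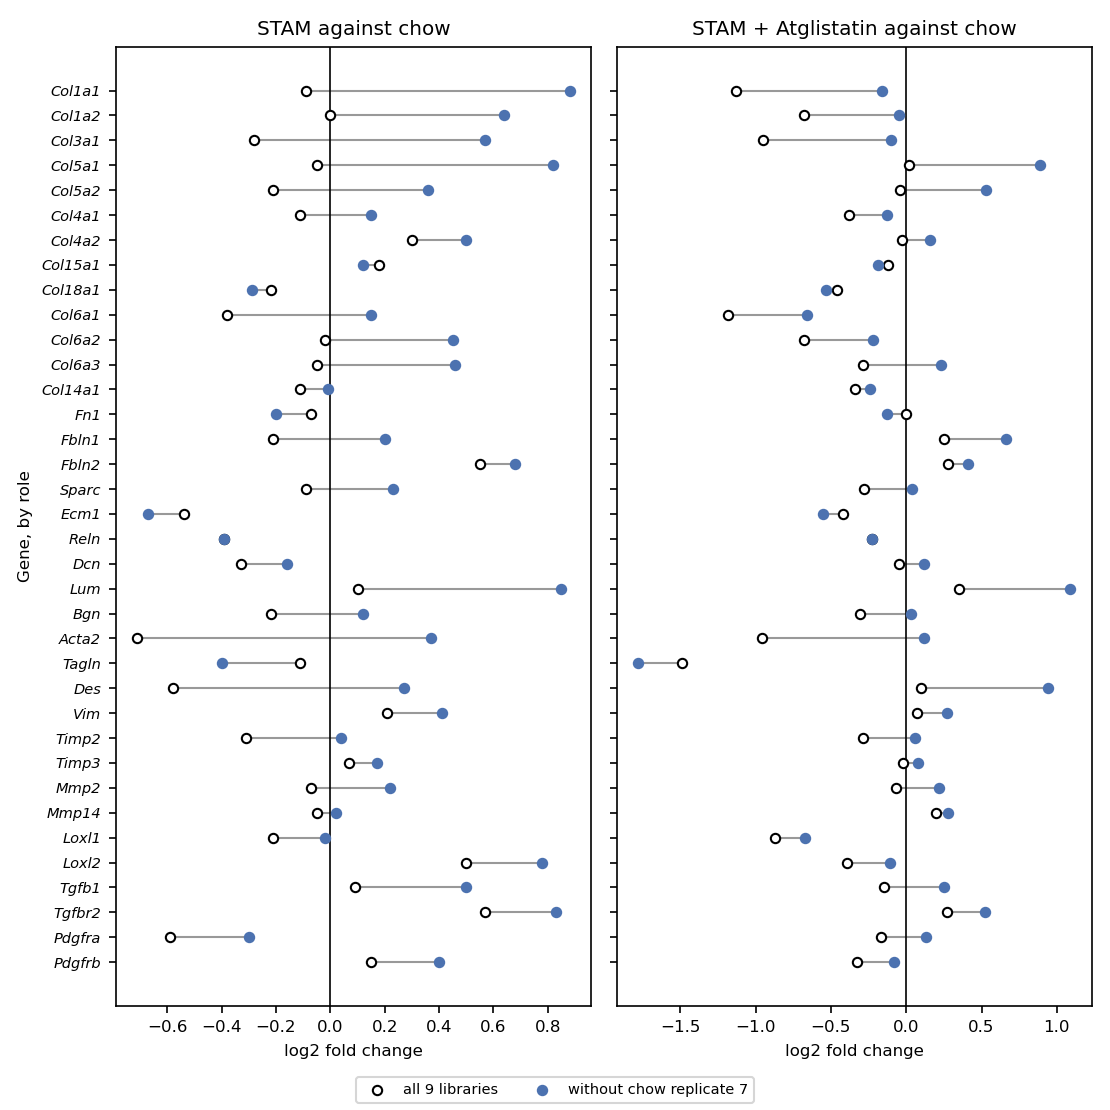
Log2 fold change of the 36 genes against chow, with all 9 libraries (open points) and without chow replicate 7 (filled points). In STAM against chow the number of genes above 0 goes from 11 to 27, while Ecm1, Reln and Col18a1 stay below 0.

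Among the proteases and their inhibitors 0 of 4 tested genes passed in any comparison. Timp2 was at 64.9 CPM in chow replicate 7 and at 34.1 to 39.3 in the other 8 libraries. Timp3 ranged from 42.3 to 67.3 CPM, Mmp14, which activates Mmp2 at the cell surface, from 30.5 to 48.3, and Mmp2, a gelatinase, from 0.844 to 3.71. Timp1, the inhibitor that rises in scarring liver, had 22, 12 and 3 counts in chow, 1, 1 and 2 in STAM, and 1, 6 and 0 in STAM + Atglistatin. Its summed counts of 37 in chow and 4 in STAM gave a chow to STAM ratio of 9.64 (95% interval 3.46 to 37.2, counting error only), with an adjusted p of 0.241 in DESeq2. It was the chow group that held the Timp1 counts, chow replicate 7 most of all.

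The lysyl oxidases cross-link collagen. Loxl2 was at 8.95, 5.18 and 5.91 CPM in chow, 9.84, 11.2 and 7.45 in STAM, and 7.42, 4.14 and 3.78 in STAM + Atglistatin. The treated libraries were below the STAM libraries by a narrow margin in replicate 4, and the difference was -0.89 ± 0.34, a 1.86-fold lower mean (95% interval -1.62 to -0.16, edgeR adjusted p = 0.325). Loxl1 was at 2.65 to 4.43 CPM in chow, 1.54 to 4.21 in STAM and 1.62 to 2.28 in STAM + Atglistatin. With Tagln and Col18a1 it was one of the 3 genes whose treated libraries were all below chow, and 0 were all above, where 9.03% of all tested genes were below and 9.60% above. Lox had 13 counts in chow, 25 in STAM, 20 of them in replicate 2, and 15 in STAM + Atglistatin.

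Ligands and receptors of the growth factor pathways gave no call. Tgfb1, the main ligand that drives collagen genes, was at 6.38, 3.98 and 2.51 CPM in chow, 5.97, 5.55 and 2.28 in STAM, and 2.51, 5.60 and 3.57 in STAM + Atglistatin. Each group spanned nearly the same range. STAM minus chow was 0.09 ± 0.48, or 0.50 ± 0.53 without chow replicate 7, and treated minus untreated STAM was -0.24 ± 0.48. Pdgfrb, the receptor for platelet-derived growth factor on stellate cells, was at 7.82, 5.66 and 4.43 CPM in chow, 7.85, 5.67 and 6.49 in STAM, and 3.91, 5.91 and 4.54 in STAM + Atglistatin, with overlap throughout. Tgfbr2, a receptor for transforming growth factor beta, was at 8.27 to 17.6 CPM in chow and 14.9 to 22.8 in STAM (0.57 ± 0.29, edgeR adjusted p = 0.387, and 0.83 ± 0.31 with 0.146 without chow replicate 7), and Pdgfra ranged from 1.35 to 5.08 CPM.

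Of 120 further genes of these pathways, 98 were tested. In STAM against chow 0 passed as higher and 2 as lower (2.04%, against 1.99% of all tested genes), Vtn and Ppib, with a median of -0.11. Without chow replicate 7, 102 were tested, 2 passed as higher (Mmp12 and Sparcl1) and 4 as lower (Vtn, Ppib, Plg and Sdc2), with a median of 0.05. These are 1.96% and 3.92% of the list, against 2.68% and 2.86% of all tested genes. Scaled by library totals, 2 passed as higher (Smad3 and Plod1) and 1 as lower (Vtn). These are 2.04% and 1.02% of the list, and the shares over all genes are not given for this scaling. Between the STAM groups 0 of 98 passed in edgeR, with a median of -0.03, where 1.79% of all tested genes passed. DESeq2 called 1 of 119 lower (0.840%, against 0.819% of all genes) and limma-voom 1 of 98 (1.02%, against 0.893%). In STAM + Atglistatin against chow 5 passed as lower, Ltbp4, Ppib, Plg, Vtn and Sdc4, and 0 as higher, with a median of -0.16. These 5 are 5.10% of the list, against 1.97% of all tested genes lower. Without chow replicate 7, 1 passed as higher and 6 as lower, with a median of 0.04. These are 0.980% and 5.88% of the list, against 2.88% and 2.91% of all tested genes.

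Vtn, vitronectin, a plasma and matrix protein made by hepatocytes, was at 1381, 1591 and 1489 CPM in chow, 930, 916 and 1178 in STAM, and 1057, 1079 and 976 in STAM + Atglistatin. All 6 STAM libraries, treated or not, were below chow, by 0.56 ± 0.12 and 0.52 ± 0.12 on the log2 scale (edgeR adjusted p = 0.0102 and 0.0178). The values were -0.61 and -0.57 without chow replicate 7. Some other hepatocyte genes were also lower in STAM than in chow, but not all. The 8 hepatocyte markers summed to 92482 to 107929 CPM in chow, 54926 to 64736 in STAM and 74308 to 74835 in STAM + Atglistatin. Of the 8, 3 passed as lower in STAM against chow, Alb by 1.03, Apoa1 by 0.80 and Ttr by 0.72 on the log2 scale (edgeR adjusted p = 5.26e-06, 0.000164 and 0.000762). The others did not pass, and Pck1 lay above chow (0.44 ± 0.21, edgeR adjusted p = 0.346). Between the STAM groups Alb was higher with Atglistatin by 0.63 ± 0.10 (edgeR adjusted p = 0.00159), while Vtn differed by 0.04 ± 0.12 (0.960). The part of the hepatocyte markers in the result for Vtn was not tested. Ppib, a folding enzyme for collagen in the endoplasmic reticulum, fell by 0.47 ± 0.12 and 0.69 ± 0.12 in the same comparisons (edgeR adjusted p = 0.0312 and 0.00208). Over the alternatives the adjusted p of Vtn ran up to 0.0838 and 0.0917 and that of Ppib up to 0.193 and 0.0162. Ltbp4, which binds latent transforming growth factor beta, fell by 0.80 ± 0.22 in the treated group against chow (edgeR adjusted p = 0.0445), and the difference was -0.67 without chow replicate 7, which did not pass (0.133). Sdc4, a cell-surface receptor for matrix, fell by 0.59 ± 0.14 against chow (edgeR adjusted p = 0.0250, and 0.000405 to 0.177 over the alternatives). Its difference from STAM was -0.50 ± 0.14 (edgeR adjusted p = 0.122, and 0.0170 to 0.349 over the alternatives). Plg, plasminogen, whose product plasmin cuts matrix, fell by 0.44 ± 0.12 against chow (edgeR adjusted p = 0.0498, and 0.00252 to 0.264 over the alternatives), and it overlaps Slc22a3 on the other strand.

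By list, 0 of 25 tested genes of transforming growth factor beta and platelet-derived growth factor signalling passed in STAM against chow, 1 of 17 of collagen processing (Ppib), 0 of 11 of matrix turnover, 1 of 30 of other matrix proteins (Vtn) and 0 of 15 matrix receptors, where 3.94% of all tested genes passed. Without chow replicate 7, Ppib and Vtn passed again, with Plg lower and Mmp12 higher in matrix turnover, Sparcl1 higher in other matrix proteins and Sdc2 lower among the receptors. Mmp12, the metalloelastase of macrophages, had 92 counts in chow replicate 7 and 0 in chow replicates 8 and 9, with 10, 41 and 19 in STAM and 11, 8 and 15 in STAM + Atglistatin. It passed as higher in STAM once chow replicate 7 was left out (edgeR adjusted p = 0.00958), a gene chosen after its values were seen.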

How the data were processed

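RNA of the left liver lobe was read with QuantSeq in 9 libraries, 3 a group. Groups came from the sample titles, which the treatment field contradicts for chow and STAM. Reads were aligned with STAR to GRCm38, per the submitters' processing notes. No source used here names the counting tool, the annotation release or the use of strand. The authors deposited raw counts per gene, and their own adjusted p-values, which are printed only where the authors' deposited table is named.

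Counts were fitted with edgeR 4.0.16 (TMM scaling, filterByExpr, quasi-likelihood, 9 libraries in 1 fit, common biological coefficient of variation 0.236) in R 4.3.3. Of 55401 genes 20630 had a count and 12660 were tested. Another 7 ribosomal RNA entries, 0.26 to 0.529% of counts, were left out. Alternatives used other scaling, no filter, DESeq2 1.42.0, limma 3.58.1 (voom with sample weights), the 2 compared groups alone, and each library left out in turn. The code was tested on simulated data. Positions come from GENCODE annotation of GRCm38. Intervals of log2 fold changes come from the edgeR fit and include the spread between libraries. Intervals of ratios of summed counts, and floors (3 counts a group), cover counting error only.

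The genes and lists were chosen with earlier results of these data known. Library values are given for genes that passed in any leave-one-out fit, genes with the widest ratio within a group, and a fixed set of matrix and stellate genes. Others printed in full were picked after their values were seen.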

Additional observations from a re-analysis of the deposited data

How the results depend on the processing

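No paired analysis was possible because the groups share no replicate numbers. Of 504 results for 14 named genes over 12 alternatives per comparison, 440 kept direction and side of the threshold, 43 changed direction, 15 newly passed and 6 no longer passed. The cause was not tested.

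In STAM against chow, 1 of the 39 genes, Ecm1, was called lower with no filter, DESeq2 or limma-voom, and 0 to 1 when 1 library was left out, the 1 without chow replicate 7. All genes passing ranged from 291 (without STAM replicate 1) to 724 (without chow replicate 7), against 499. Library totals gave 0.03 for Fn1, and limma-voom gave 0.42 for Col1a1, 0.16 for Col3a1 and 0.42 for Col5a1. With 1 library left out, log2 fold changes ran from -0.47 to 0.88 for Col1a1, -0.32 to 0.64 for Col1a2, -0.57 to 0.57 for Col3a1, -0.39 to 0.82 for Col5a1, -0.20 to 0.00 for Fn1, -1.04 to 0.37 for Acta2, -1.20 to 0.27 for Des, -0.17 to 0.50 for Tgfb1 and -0.02 to 0.40 for Pdgfrb.

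In STAM + Atglistatin against STAM, 3 genes were called lower with no filter, 1 with DESeq2 and 2 with only the 2 groups. All genes passing were 226, 392 with no filter, and 131 to 191 with 1 library left out, the lowest without STAM replicate 1. The ranges with 1 library left out were -0.08 to 0.19 for Col5a1, -0.05 to 0.16 for Fn1, -1.97 to 0.28 for Fbln2 (lowest without STAM + Atglistatin replicate 6) and -0.00 to 0.32 for Reln.

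In STAM + Atglistatin against chow, 0 genes were called lower with library totals or only the 2 groups, 4 with no filter, and 0 to 2 with 1 library left out: Col18a1 lost its call without chow replicate 8 or 9, STAM + Atglistatin replicate 5 or 6. All genes passing ranged from 309 (without STAM + Atglistatin replicate 5) to 757 (without chow replicate 7), against 516. Dcn was 0.02 with library totals, and limma-voom gave -0.08 for Fn1, -0.67 for Fbln2, 0.02 for Dcn and 0.02 for Tgfb1. The ranges with 1 library left out were -0.13 to 0.09 for Fn1, -0.15 to 0.12 for Dcn, -1.29 to 0.12 for Acta2, -0.51 to 0.25 for Tgfb1, -0.32 to 0.89 for Col5a1, -1.42 to 0.83 for Fbln2 and -0.39 to 0.94 for Des.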

Other observations

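Of the 75 tested marker genes, 1 passed as higher in STAM against chow (Lyve1) and 4 as lower (Alb, Apoa1, Ttr and Hhip). These are 1.33% and 5.33%, against 1.95% and 1.99% of all tested genes. In STAM + Atglistatin against STAM 2 passed as higher (Alb and Hhip) and 1 as lower (Serpina1c), 2.67% and 1.33% against 1.04% and 0.742%. In STAM + Atglistatin against chow 0 passed as higher and 5 as lower (6.67%, against 1.97%), namely Alb, Apoa1, Serpina1c, Cps1 and Alas2. Hhip was the 1 of 11 tested quiescent stellate cell markers that passed in any comparison. In STAM against chow 5 of the 11 were above 0 and 6 below, with a median of -0.09. Hhip, a binding protein of hedgehog ligands, was at 4.84, 3.98 and 4.88 CPM in chow, 1.33, 0.590 and 0.721 in STAM, and 3.91, 3.0 and 4.76 in STAM + Atglistatin. Its counts were 47, 33 and 33 in chow, 12, 5 and 6 in STAM, and 39, 29 and 44 in STAM + Atglistatin. All STAM libraries were below all libraries of both other groups. Of all tested genes 10.2% lay lower in STAM than in chow without overlap, and 8.58% lay higher in STAM + Atglistatin than in STAM. Hhip fell by 2.35 ± 0.52 on the log2 scale in STAM against chow (edgeR adjusted p = 0.0136, 0.00147 to 0.0710 over the alternatives) and was higher by 2.12 ± 0.52 in STAM + Atglistatin than in STAM (edgeR adjusted p = 0.0451, 0.0115 to 0.210). Chow replicate 7 lay within its group for Hhip, unlike for the fibrillar collagens.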
